A study of Vulpes vulpes with 8 samples.

Results

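Genes of the cornified envelope and of the lipid barrier were examined in the gingiva of 8 red foxes (Vulpes vulpes), 5 affected by hereditary hyperplastic gingivitis (HHG), an inherited overgrowth of the gum, and 3 unaffected. The set was a fixed list of 34 symbols from which keratins, kallikreins and desmosomal genes had been left out. Of these, 20 were on the array under a single symbol, out of 15115 genes named that way, and each was represented by its probe set with the highest mean over the 8 arrays. The genes LOR, FLG, FLG2, SPRR1A, SPRR1B, SPRR3, KPRP, CRCT1, RPTN, CRNN, HRNR, SCEL, LIPK and LIPM, 14 in all, were not analysed here.

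Each array was hybridised with RNA from 1 animal, and foxes are called by the number in their labels. The affected foxes were 19, 55 and 107 (males) and 381 and 757 (females), and the unaffected foxes were 86 and 97 (males) and 402 (female). Affected animals were recognised by red, granular raised gum at the tooth margin, pieces came either from euthanised animals at pelting or from anaesthetised animals in late spring, and no season, age or genotype is given for a single fox. The arrays carry dog sequences (Affymetrix Canine 2), so a fox transcript that differs from the dog's can read low.

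Keratinocytes of a stratified epithelium end their life by building a cornified envelope. Precursor proteins such as involucrin, envoplakin and periplakin are laid down under the plasma membrane and cross-linked by transglutaminases, while very long ceramides made and exported by the same cells are attached to the outside and seal the surface. Attached gingiva and the hard palate are keratinised, whereas the lining of the gingival sulcus is not, so the amount of this programme in a piece of gum is known to differ from site to site. In the RefSeq annotation of the fox assembly VulVul3, IVL lies in one stretch of the genome with the genes for loricrin, KPRP, CRCT1, CRNN, FLG and RPTN, the epidermal differentiation complex, and ALOX12B and ALOXE3 are direct neighbours.

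The values are MAS5 signals on a linear scale. The background of an array, the 95th percentile of its 42 bacterial control probe sets, lay between 7.42 and 16.6. The median signal of all probe sets ran from 28.7 to 33.8 over the arrays, and 63.4% to 74.7% of probe sets lay above background. KRT13 and KRT76, keratins of the oral lining and of gum and palate, read 6515 or more and 1029 or more in every fox.

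The cornification genes varied more between foxes than the typical probe set did. Unaffected fox 86 had the lowest signal of all 8 foxes for 15 of the 18 genes that passed the filter on low signal, 83.3% of them, where this fox was lowest for 13.2% of all 25754 probe sets tested. Affected fox 19 was highest for 7 of the 18, or 38.9%, against 13.9% of all probe sets. Both foxes were picked out with values of these data in view, so these shares are a description. Between the highest and the lowest fox the genes differed by a median of 3.0 on the log2(signal + 16) scale (1.21 to 7.1), and all probe sets tested by a median of 0.93.

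As a level for each fox, every gene was centred on its own mean over the 8 foxes on the log2(signal + 16) scale and the 20 genes were averaged. The result was -1.69 in unaffected fox 86 and -0.79 in affected fox 757, then -0.15, 0.09 and 0.34 in affected foxes 55, 107 and 381, and 0.64, 0.72 and 0.84 in unaffected foxes 97 and 402 and affected fox 19. The unaffected group thus held both the lowest level and 2 of the 3 highest, and the affected foxes lay between them or just above. Fox 86 read above a gene's median over the 8 foxes in 0 of the 20 genes and fox 757 in 3 of them, while foxes 97 and 402 did so in 17 each and fox 19 in 16. Fox 86 was at background for 4 genes, CASP14, ASPRV1, ALOXE3 and ABCA12.

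**Figure D1:**
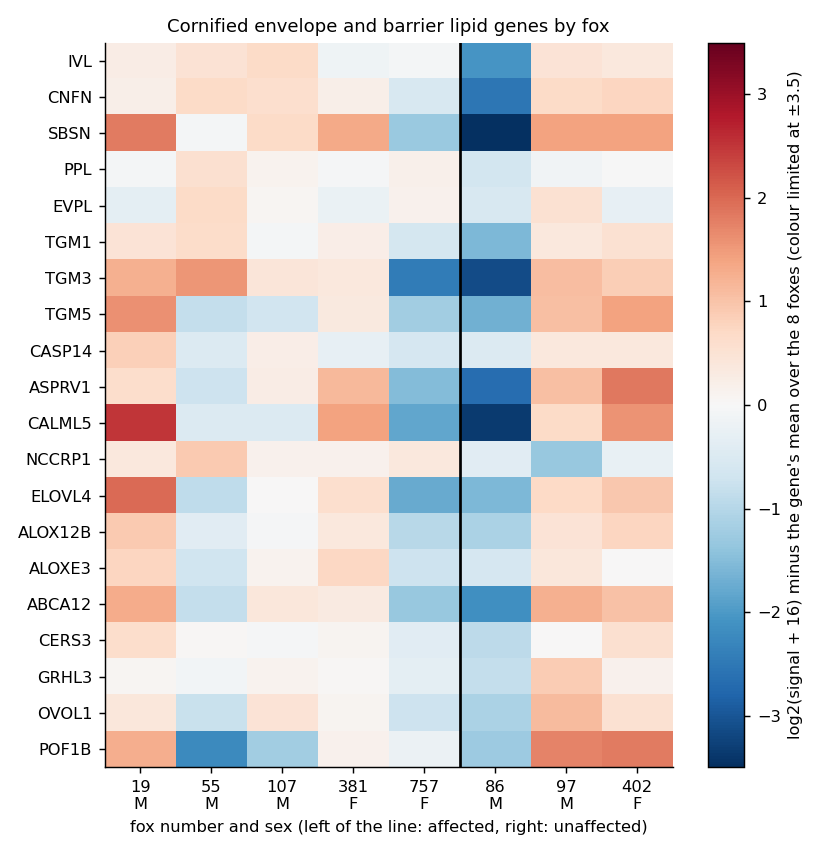
Heat map of the 20 cornified envelope and barrier lipid genes (rows) in 8 foxes (columns, with fox number and sex; the black line divides affected from unaffected), coloured by log2(signal + 16) minus the gene's mean over the foxes. The column of unaffected fox 86 is the lowest for 15 genes, the other unaffected columns, 97 and 402, are mostly red, and NCCRP1 is the gene that runs against them.

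The envelope precursors came first in the comparison of affected with unaffected foxes, which asked whether the overgrown gum cornifies to a different degree. IVL encodes involucrin, an early scaffold of the envelope. Its signal was 5966, 7098, 7879, 4477 and 4783 in affected foxes 19, 55, 107, 381 and 757, and 1173, 6937 and 6485 in unaffected foxes 86, 97 and 402. All foxes but 86 lay within a 2-fold band, and the groups overlapped. Affected foxes averaged 6040 ± 1460 (SD, n = 5) against 4865 ± 3205 (SD, n = 3), and the log2 difference was 0.65 ± 0.52 (SE), or -0.18 without fox 86.

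CNFN, cornifelin, was likewise lowest in fox 86. It read 964, 1342, 1266, 968 and 562 in affected foxes 19, 55, 107, 381 and 757, and 131, 1326 and 1423 in unaffected foxes 86, 97 and 402. Unaffected foxes 97 and 402 were 10.1 and 10.8 times as high as unaffected fox 86. The log2 difference between the groups was 0.60 ± 0.67 (SE), and -0.48 without fox 86.

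SBSN, suprabasin, a secreted protein of the suprabasal layers, had the widest range of the set. Its signal was 6697, 1796, 3010, 4709 and 761 in affected foxes 19, 55, 107, 381 and 757, and 33.1, 5078 and 5033 in unaffected foxes 86, 97 and 402. Fox 19 was 202 times as high as fox 86, and fox 757 was the lowest of the affected foxes. The group means were almost the same, 3395 ± 2360 (SD, n = 5) against 3381 ± 2900 (SD, n = 3). The log2 difference of 1.30 ± 1.39 (SE), with a 95% interval from -1.80 to 4.41, became -0.93 without fox 86.

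The plakins behaved more evenly. PPL, periplakin, read 4582, 7055, 5157, 4672 and 5426 in affected foxes 19, 55, 107, 381 and 757, and 3045, 4354 and 4755 in unaffected foxes 86, 97 and 402. Affected fox 55 was highest, fox 86 was only 1.43 times lower than fox 97, and the groups overlapped. The difference of 0.41 ± 0.21 on the log2 scale (95% interval -0.06 to 0.89) was the steadiest of the envelope precursors when single foxes were left out, from 0.22 to 0.54, and the second PPL probe set also gave 0.41. EVPL, envoplakin, its partner in the scaffold, ran from 327 to 668 in the affected group and from 278 to 609 in the other, with a log2 difference of 0.16 ± 0.30 (SE).

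**Figure D2:**
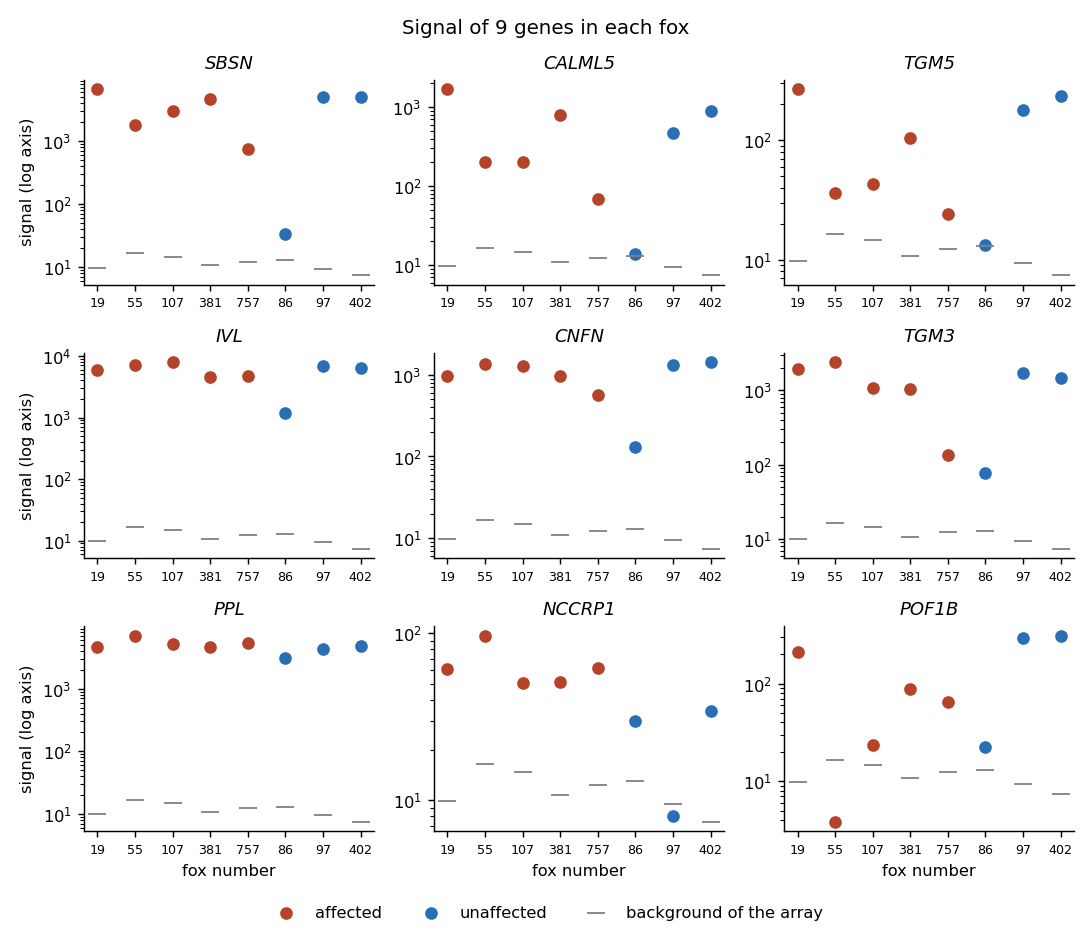
Signal of 9 genes on log axes (vertical) in each fox (horizontal, by fox number); red points are affected and blue points unaffected foxes, and grey bars mark the background of each array. Fox 86 is far below the other foxes for SBSN, CALML5, IVL and CNFN but not for PPL, foxes 86 and 757 are both low for TGM3, NCCRP1 is the one gene here whose groups do not overlap, and TGM5 and TGM3 differ in fox 55.

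Transglutaminases join the precursors by bonds between glutamine and lysine. TGM1, the membrane-bound enzyme of keratinocytes, read 1850, 2047, 1247, 1548 and 855 in affected foxes 19, 55, 107, 381 and 757, and 429, 1685 and 1920 in unaffected foxes 86, 97 and 402. TGM3, a soluble enzyme activated by proteolysis, read 1920, 2382, 1079, 1036 and 133 in the same affected foxes and 77.7, 1718 and 1473 in the unaffected ones. For both genes foxes 86 and 757 were lowest and fox 55 was highest. The log2 differences were 0.36 ± 0.47 for TGM1 and 0.62 ± 1.08 for TGM3 (SE), and -0.31 and -0.75 without fox 86.

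TGM5, another transglutaminase of the upper layers, had a different profile among the affected foxes. It read 269, 36.5, 43.4, 104 and 24.2 in affected foxes 19, 55, 107, 381 and 757, and 13.4, 180 and 236 in unaffected foxes 86, 97 and 402. Affected fox 55, the highest of all for TGM1 and TGM3, was 7.36 times lower than fox 19 for TGM5. The group difference of -0.42 ± 0.78 (SE) was -1.39 without fox 86 and 0.16 without fox 402.

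The contrast between foxes 19 and 55 divided the set and is given as a description, since it was chosen with these values in view. Fox 19 read higher than fox 55 in 13 genes and lower in 7, namely IVL, CNFN, PPL, EVPL, TGM1, TGM3 and NCCRP1. These 7 are precursors, cross-linking enzymes and NCCRP1, and their ratio of fox 19 to fox 55 ran from 0.489 (EVPL) to 0.904 (TGM1). The precursor SBSN and the cross-linking enzyme TGM5 were among the 13, with ratios of 3.73 and 7.36. No share over all probe sets is given for this count. The barrier lipid genes were all among the 13, with ratios of 9.13 for ELOVL4, 5.55 for ABCA12, 2.78 for ALOX12B and 1.5 for CERS3, and with ALOXE3 at background in fox 55. Of the 8 suprabasal and mucosal markers on the array, 7 also read higher in fox 19, among them KRT10, a keratin of cornifying epithelium (5124 against 86.4), and KRT76 (14746 against 5621). KRT13, at 7090 against 8633, was the other one.

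CALML5, a calmodulin-like protein of differentiating keratinocytes, was also among the 13. Its signal was 1695, 200.2, 200.3, 790.5 and 69.4 in affected foxes 19, 55, 107, 381 and 757, and 14.0, 467 and 895 in unaffected foxes 86, 97 and 402. Fox 19 was 121 times as high as fox 86, which read just above the background of its array. The log2 difference between the groups was 0.58 ± 1.18 (SE), or -0.91 without fox 86 and 1.55 without fox 402.

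NCCRP1, a small protein related to the F-box family that is found in stratified squamous epithelium, was the exception. It read 60.8, 96.8, 50.7, 51.0 and 62.0 in affected foxes 19, 55, 107, 381 and 757, and 29.7, 8.08 and 34.4 in unaffected foxes 86, 97 and 402. Every affected fox lay above every unaffected fox, and the lowest fox was 97, at background, where most other genes of the set were high. This held for 1 of the 18 genes tested (5.56%) and for 0.909% of all probe sets, and the reverse, every affected fox below every unaffected fox, held for 0 of the 18 and for 1.52% of all probe sets. The log2 difference of 1.04 ± 0.28 (SE; 95% interval 0.43 to 1.66) had an unadjusted p of 0.00362 and adjusted p = 0.9999 in limma, and ran from 0.71 to 1.25 when single foxes were left out.

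The proteases of the set process filaggrin. ASPRV1, an aspartic protease, read 165, 56.4, 127, 248 and 26.0 in affected foxes 19, 55, 107, 381 and 757, and 2.72, 232 and 413 in unaffected foxes 86, 97 and 402. Fox 86 was at background and fox 402 highest, and the log2 difference of -0.12 ± 0.94 (SE) was -1.50 without the former and 0.76 without the latter. CASP14, a caspase of cornification, did not pass the filter on low signal. It was at background in affected foxes 55, 381 and 757 and unaffected fox 86, and reached 31.4 in fox 19.

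Among the barrier lipid genes, ELOVL4 extends fatty acids to the very long chains found in skin ceramides. It read 496, 54.3, 116, 179 and 22.3 in affected foxes 19, 55, 107, 381 and 757, and 27.9, 195 and 233 in unaffected foxes 86, 97 and 402. Foxes 757 and 86 were both low and the groups overlapped, with a log2 difference of -0.04 ± 0.81 (SE). ABCA12 loads lipid into lamellar granules. It read 241, 43.4, 123, 116 and 26.4 in affected foxes 19, 55, 107, 381 and 757, and 7.86 (at background), 234 and 200 in unaffected foxes 86, 97 and 402, with a log2 difference of -0.07 ± 0.80 (SE).

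CERS3, the synthase that joins very long acyl chains to the sphingoid base, varied less, from 550 to 1124 with disease and from 379 to 1075 without. Its log2 difference was 0.18 ± 0.33 (SE), and its second probe set gave 0.14. ALOX12B and ALOXE3 are lipoxygenases that act one after the other on ceramide-bound linoleate. ALOX12B ran from 46.5 to 215 and from 40.6 to 191, with a log2 difference of -0.06 ± 0.49 (SE). ALOXE3 did not pass the filter, was at background in affected foxes 55 and 757 and unaffected fox 86, and was highest in foxes 19 and 381, at 35.1 and 34.6.

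The regulators and the junction gene had estimates below 0. GRHL3, a grainyhead-like factor of barrier formation, read 154 to 219 in affected foxes and 105, 385 and 225 in unaffected foxes 86, 97 and 402. The affected foxes fell within a narrow band while the unaffected foxes lay below and above it, and the log2 difference was -0.12 ± 0.33 (SE), or 0.01 by the second probe set. OVOL1, a zinc finger factor of differentiating keratinocytes, ran from 52.1 to 149 and from 38.3 to 237, with a difference of -0.28 ± 0.49 (SE). Both were highest in unaffected fox 97.

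POF1B, an actin-binding protein of epithelial junctions, had the lowest estimate of the set. It read 209, 3.83, 23.8, 87.7 and 64.5 in affected foxes 19, 55, 107, 381 and 757, and 22.7, 292 and 310 in unaffected foxes 86, 97 and 402. Fox 55 was at background, and the groups overlapped through fox 86, which lay below 4 of the affected foxes. The log2 difference was -1.21 ± 0.86 (SE; 95% interval -3.11 to 0.70), or -2.22 without fox 86 and -0.68 without fox 402.

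Over the 18 genes tested, limma called 0 at an adjusted p under 0.05 (Benjamini-Hochberg over all probe sets), as it called 0 of all 25754 probe sets (0%). At an unadjusted p under 0.05 there was 1 gene, NCCRP1, or 5.56%, against 2.69% of all probe sets. The adjusted p of every gene in the set was 0.9999. The estimate was above 0 in 10 of the 18 (55.6%), against 43.5% of all probe sets, with a median of 0.171 against -0.037. A fold of at least 2 was estimated upwards for 2 genes, SBSN and NCCRP1 (11.1%, against 0.315% of all probe sets), and downwards for 1, POF1B (5.56%, against 0.0893%).

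The balance of directions depended on which foxes were included, and most on the unaffected ones. Without fox 86 the estimate was above 0 in 2 of the 18 genes, PPL and NCCRP1, with a median of -0.69. Without fox 97 it was above 0 in 16 genes (median 0.48), and without fox 402 in 15 (median 0.53). Among affected foxes, leaving out 55 or 757 gave 14 genes each (medians 0.18 and 0.35). Leaving out 19, 107 or 381 gave 10 each. The median standard error of a difference was 0.59 over these genes and 0.23 over all probe sets.

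**Figure D3:**
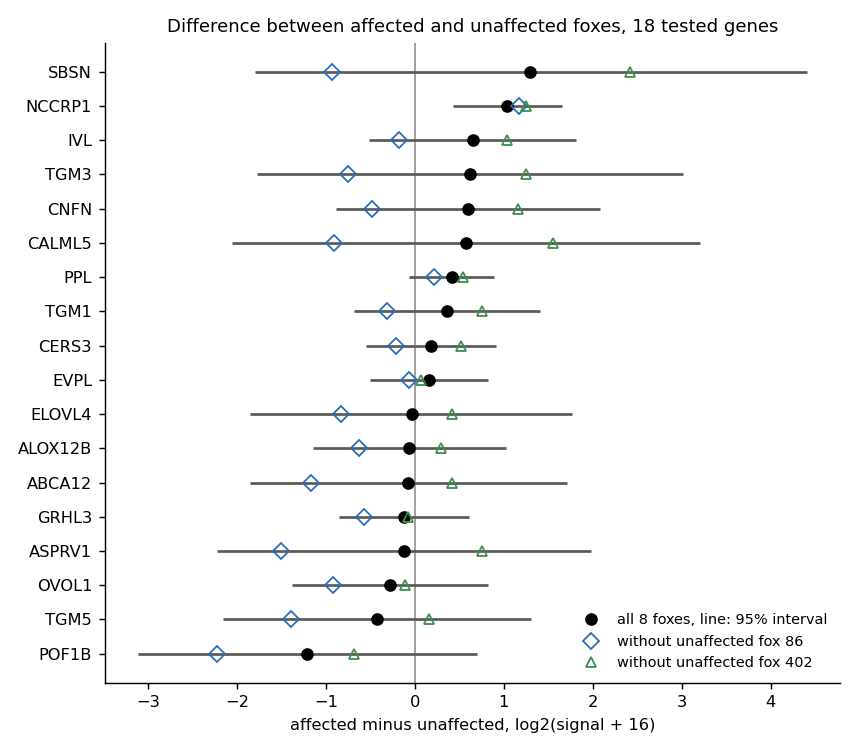
Difference between affected and unaffected foxes on the log2(signal + 16) scale (horizontal) for the 18 tested genes (vertical); black points and lines give the limma estimate and its 95% interval over all 8 foxes, blue diamonds the estimate without unaffected fox 86 and green triangles that without unaffected fox 402. The interval of NCCRP1 (0.43 to 1.66) lies above 0 and those of the other 17 genes span it, and leaving out fox 86 moves 8 of the 10 estimates above 0 to below it.

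The same comparison gave different values within each sex. Within males (3 affected, 2 unaffected) affected foxes had the higher mean in 18 of the 20 genes (median log2 difference 0.70). Within females (2 affected, 1 unaffected) they had the lower mean in 17 (median -0.89). No share over all probe sets is given for these counts. For SBSN the difference was 2.73 in males and -1.40 in females, and for TGM3 2.09 and -1.91. The unaffected males include fox 86, and the single unaffected female is fox 402, which stood among the 3 highest.

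The difference of the disease effect between the sexes was tested as an interaction. It was below 0 in 17 of the 18 tested genes, 1 gene (5.56%) lying above 0 against 54.1% of all probe sets, with a median of -1.73 against 0.051. Limma called 0 of the 18 and 0 of all probe sets (0%), and at an unadjusted p under 0.05 it called 0 of the 18 and 2.48% of all probe sets. The smallest p was that of CERS3 (-1.37 ± 0.59 (SE), unadjusted p = 0.0503, adjusted p = 1.0 in limma), followed by TGM3 (-4.0 ± 2.03) and TGM1 (-1.69 ± 0.93), while EVPL gave 0.10 ± 0.68. Without fox 86 the median was -0.76 and 4 genes lay above 0.

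Females and males were also compared with group as a covariate. The estimate was higher in females for 13 of the 18 genes (72.2%, against 50.3% of all probe sets), with a median of 0.076. Limma called 0 of the 18 and 1 of all probe sets (0.00388%), and at an unadjusted p under 0.05 it called 0 of the 18 and 2.29% of all probe sets. POF1B differed by 1.02 ± 0.84, ASPRV1 by 0.80 ± 0.97 and CALML5 by 0.58 ± 1.24 (SE), and EVPL, TGM3 and GRHL3 by -0.21 ± 0.31, -0.69 ± 1.12 and -0.07 ± 0.35. The count of 13 became 3 without fox 86 and 1 without fox 402. The probe set called, which the annotation names EIF2S3, read 747 to 970.3 in males and at background in females. It was found through the labelled sex, so it is no independent check of the labels.

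A control probe set for the 5' end of beta-actin divided the animals into 2 sets at the largest gap of its log2 signal. It read 7831 to 8868 in foxes 86, 97, 107 and 757 against 1354 to 2336 in the other 4. The mean centred level of the cornification genes was -1.69, 0.64, 0.09 and -0.79 in the former foxes and 0.84, -0.15, 0.34 and 0.72 in foxes 19, 55, 381 and 402. The lowest signal of a gene fell in fox 86 for 15 of the 20 genes, in fox 757 for 3 and in fox 97 for 1. For POF1B it fell in fox 55, of the other set. Fox 97 read above a gene's median in 17 genes, although it is in the same set as fox 86. No share over all probe sets is given for the set as a whole. The labels do not say whether this split is technical. Its part in the values was not tested beyond a fit with the set as a covariate, where the median disease difference was -0.04 in place of 0.17. Within the first set, of 2 affected and 2 unaffected foxes, 11 of the 20 genes had a higher mean in affected animals (median 0.06). Within the second, which held 1 unaffected fox, 5 of 20 did (median -0.37). These counts too are given without a share over all probe sets. NCCRP1 was higher in affected foxes within both sets (by 1.12 and 0.73), and SBSN differed by 1.62 and -0.39, and POF1B by -0.95 and -2.08.

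Sums of suprabasal and of leukocyte markers followed the cornification genes from fox to fox, in opposite directions. The other lists followed them less closely or not at all. Summed over the 8 suprabasal and mucosal epithelium markers on the array (of 11 listed), the signal was 11401 in fox 86, 25544 in fox 55, 27569 in fox 757 and 45137 to 62481 in the other foxes. Leukocyte markers, 11 of 11 on the array, ran the other way, at 2752 in fox 86, 2208 in fox 757, 1989 and 1953 in foxes 55 and 107, 1378 in fox 381 and 744 to 992 in foxes 97, 19 and 402. The 10 connective tissue markers summed to 36966 in fox 86, to 14309 in fox 55 and to 10969 to 33379 in the others. The 8 blood vessel markers summed to 1785 in fox 86 and to 785 to 1413 in the others. The part of these cell types in the differences was not tested, and in these bulk samples fewer cornifying cells and less RNA per cell cannot be told apart.

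The summed basal markers did not set fox 86 apart. The 6 basal and simple epithelium markers on the array (of 9 listed) summed to 7962 in fox 86, within the range of 6875 to 9458 over the other unaffected foxes and 7101 to 8613 over the affected ones. KRT5, KRT14 and KRT15 were not on the array under a single symbol, and EPCAM (2970) and ITGA6 (3947) made up most of the sum in fox 86. TP63, a factor of basal keratinocytes, read 71.7 in fox 86 and was at background in fox 55. Single markers varied more than the sum. EPCAM ran from 1278 in fox 19 to 4641 in fox 97, and TP63 from 2.64 in fox 55 to 181 in fox 97. A similar sum therefore does not show a similar amount of basal cells. Between the groups all these sums overlapped, the suprabasal markers at 25544 to 62481 in affected foxes against 11401 to 61106 and the leukocyte markers at 799 to 2208 against 744 to 2752. KRT1 was at background in 5 foxes and TEK in 5, PDGFRB in 3, CD79A in 2. Salivary gland (3 of 7 markers on the array) summed to 113 to 240 with disease and 68 to 165 without, skeletal muscle (7 of 8) to 86 to 148 and 88 to 138, with MYH2 at background in all 8 foxes, and melanocytes (6 of 6) to 258 to 632 and 175 to 908, with TYR and DCT at background in 5 foxes each.

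**Figure D4:**
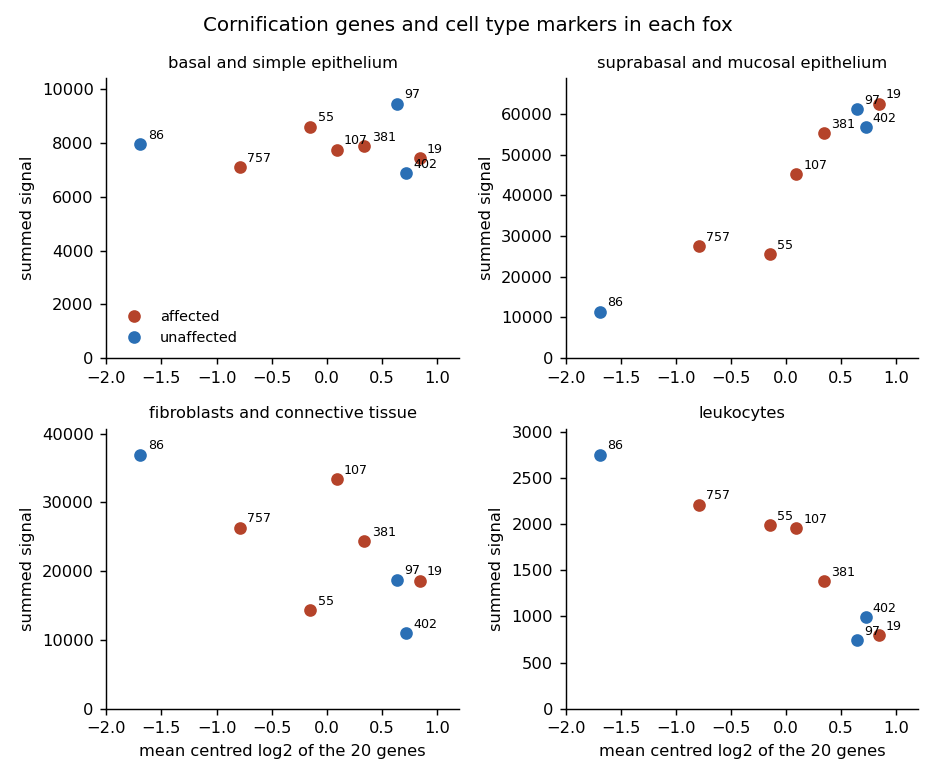
Summed signal of 4 cell type marker lists (vertical), against the mean centred log2 level of the 20 cornification genes (horizontal), with 1 point per fox labelled by its number; red is affected and blue unaffected. Suprabasal markers are lowest and leukocyte markers highest in foxes 86, 757 and 55, where the cornification genes are low. The sum of the basal markers spans a narrow band, which does not hold for each marker in it.

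Other genes of the pathway were taken from 3 lists that share no symbol with the set. Of 27 tested genes for further envelope proteins and their enzymes, 0 passed in either direction and 0 had an unadjusted p under 0.05, with 23 estimates above 0 and a median of 0.229. Over all probe sets 2.69% had such a p and 43.5% an estimate above 0. Fox 86 was lowest for 12 of these 27, against 13.2% of all probe sets. ANXA1, an annexin cross-linked into envelopes, read 11063 ± 1573 (SD, n = 5) against 8612 ± 701 (SD, n = 3) and differed by 0.35 ± 0.17 (SE), without overlap between the groups, as in 0.909% of all probe sets. Its other probe sets gave 0.81. CLIC3, a chloride channel family protein, and PADI4, a deiminase, differed by 0.51 ± 0.27 and 0.50 ± 0.31. The smallest p among lower estimates belonged to GSDMA, a gasdermin at background in 2 foxes (-0.57 ± 0.77), TGM2 (-0.08 ± 0.32) and TGM6 (-0.03 ± 0.25). Other tested probe sets of TGM2 and TGM6 gave -0.03 and -0.26.

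Of 35 tested genes for other steps of lipid synthesis, transport and processing, 0 passed, 3 had an unadjusted p under 0.05, 20 had estimates above 0 and the median was 0.052, beside the same 2.69% and 43.5% over all probe sets. DGAT2, which makes triacylglycerol, read 180.1 to 367 in the affected group against 90.1 to 159, a log2 difference of 0.98 ± 0.26 (SE; unadjusted p = 0.004, adjusted p = 0.9999 in limma), and its other probe sets gave 0.19 to 0.36. ACSL1, which activates fatty acids, read 365 to 468 against 269.7 to 331 and differed by 0.51 ± 0.16 (0.05 and 0.32 by its other probe sets). In both genes, named for their small p, every affected fox lay above every unaffected fox, as in 0.909% of all probe sets, and without fox 86 the differences were 1.21 and 0.48.

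FABP5, the fatty acid-binding protein of keratinocytes, completed the 3, at 11881 ± 1622 against 8722 ± 1347 (SD, n = 5 and n = 3), with a log2 difference of 0.45 ± 0.19 (0.52 by its second probe set). Its groups overlapped. Among genes with lower estimates were SPTLC1, a subunit of the enzyme that starts sphingolipid synthesis (-0.26 ± 0.24), the phospholipase PLA2G4F (-0.61 ± 0.70, at background in 4 foxes) and DEGS1, a ceramide desaturase (-0.20 ± 0.23, or -0.11 by its second probe set). Fox 86 was lowest for 11 of the 35.

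Of 25 tested regulators of late keratinocyte differentiation 0 passed, 1 had an unadjusted p under 0.05, 9 had estimates above 0 (2.69% and 43.5% over all probe sets) and the median was -0.07. SATB1, a chromatin organiser of the epidermal differentiation complex, read 39.0 to 75.1 in the affected group against 68.5 to 139.7, a log2 difference of -0.60 ± 0.26 (SE; unadjusted p = 0.0459, adjusted p = 0.9999 in limma), with overlap. KLF4, a factor needed for the skin barrier, read 3193 to 7088 against 1429 to 6800 and differed by 0.36 ± 0.48, or -0.37 without fox 86. Its second probe set gave 0.02. FOSL1 and ELF3 differed by 0.39 ± 0.23 and 0.53 ± 0.51, and JUNB and NOTCH3 by -0.47 ± 0.43 and -0.17 ± 0.17. Fox 86 was lowest for 9 of the 25.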

How the data were processed

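The deposited values are linear intensities, MAS5 signals per the submitters' processing notes, which the authors' table holds once for each fox and probe set. Its scaling target and background correction were not given in the sources used here. Of 43035 probe sets, 111 were controls, and 29254 of the others had 1 symbol in the annotation given, 439 several and 13231 none. Those with several were not used for naming. Signals were taken as log2(signal + 16), which shrinks differences of dim probe sets, and probe sets in the lowest 40% by mean were dropped, leaving 25754. Groups were compared with limma 3.58.1 in R 4.3.3 (lmFit, eBayes, Benjamini-Hochberg over all probe sets, threshold 0.05); sex was compared with group as a covariate, and their interaction in a separate fit. The fit was also run on simulated data with noise drawn independently for each probe set and array. That run therefore cannot cover genes that vary together from fox to fox. Alternatives were other offsets, no filter, quantile normalization, array weights, the 5' actin set as a covariate, sex as a covariate, a prior variance with a trend, males alone, 1 probe set per gene, a second probe set and leaving out each fox. Every gene of the set on the array is named; from other lists up to 3 genes per direction with the smallest p. The members and lists were chosen with earlier results of these data known. Precision is limited by the number of arrays. Protein and promoter sequences were not used here.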

Additional observations from a re-analysis of the deposited data

How the results depend on the processing

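Under every alternative run, limma called 0 of the cornification genes, and in the disease comparison and the interaction 0 of all probe sets. In the sex comparison the count of probe sets called was 1 to 2 when single foxes were left out. The number of genes with an estimate above 0, 10 of 18, was 16 in males alone and 6 with array weights, and ran from 2 to 16 when single foxes were left out. It ran from 1 to 17 in the sex comparison, and was 4 for the interaction without unaffected fox 86, an alternative chosen after seeing the data. Signs of single estimates changed as follows, also for SBSN, whose estimate was the highest; none had passed a threshold, and the cause was not tested. An offset of 1 gave 0.43 for ASPRV1 and 0.17 for ABCA12, and quantile normalization 0.03 for ELOVL4 and 0.01 for ALOX12B. Males alone gave 0.34 for TGM5, 0.86 for ASPRV1, 0.80 for ELOVL4, 0.49 for ALOX12B, 0.74 for ABCA12 and 0.04 for OVOL1. Array weights gave -0.02 for TGM1, -0.14 for TGM3, -0.23 for CALML5 and -0.03 for CERS3; the 5' actin set as a covariate gave -0.09 for CALML5, and the second GRHL3 probe set 0.01. With single foxes left out, disease estimates ran from -0.18 to 1.09 for IVL, -0.48 to 1.16 for CNFN, -0.93 to 2.42 for SBSN, -0.07 to 0.48 for EVPL, -0.31 to 0.75 for TGM1, -0.75 to 1.36 for TGM3, -1.39 to 0.16 for TGM5, -1.50 to 0.76 for ASPRV1, -0.91 to 1.55 for CALML5, -0.83 to 0.42 for ELOVL4, -0.63 to 0.30 for ALOX12B, -1.17 to 0.53 for ABCA12, -0.21 to 0.52 for CERS3, -0.57 to 0.29 for GRHL3 and -0.92 to 0.19 for OVOL1. Sex estimates ran from -2.12 to 0.51 for TGM3, -0.35 to 0.16 for GRHL3, -0.72 to 1.85 for CALML5 and -0.23 to 1.83 for ASPRV1. The signs of PPL, NCCRP1 and POF1B were kept in all alternatives run for them. Signals near background limit CASP14, ALOXE3 and, in single foxes, NCCRP1, POF1B, ASPRV1 and ABCA12, the last pair in fox 86. No paired analysis was possible because the groups share no fox number.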
